A study of Mus musculus with 12 samples.

Results

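The thrombospondin family is described here in mouse mesenchymal stromal cells through its 5 genes, Thbs1, Thbs2, Thbs3, Thbs4 and Comp, the last of which encodes thrombospondin 5. The members were taken by gene symbol and were 5 of the 53819 entries of the deposited count table. All 5 passed the filter on low counts and were among the 15698 genes tested, but Thbs4 passed it through the bone-associated libraries alone.

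Bulk RNA was sequenced from 12 libraries of wild-type mouse cells in 4 groups of 3. Bone marrow (BM) cells from the hind limbs and pelvis were grown on plates coated with collagen I. Once passaged, they were lysed as they were (BM nonsorted) or sorted by flow cytometry (BM sorted). The sorted cells carried CD51 and Sca-1 and lacked CD31, CD45, Ly6C and F4/80. Bone-associated cells (BAC) were released from hind-limb bone fragments with collagenase I and were used without (BAC nondepleted) or with (BAC depleted) magnetic removal of cells bearing CD45, Ly6C or F4/80. The marrow and the bone-associated groups therefore differ in origin, in digestion and in the plating and passage of the marrow cells, which cannot be told apart, and no source used here states how long bone-associated cells were in culture. The purified groups differ in the method of purification as well, while BM nonsorted and BAC nondepleted cells had none. No source used here says whether the libraries of a group came from separate mice. Sex genes, given below, show that the BAC depleted libraries did not all come from 1 mouse. P-values measure only the spread between these libraries. That spread may be partly technical in BAC depleted cells and wholly technical in the other groups.

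Thrombospondins are secreted calcium-binding glycoproteins that bridge cells and matrix. Thbs1 and Thbs2 form trimers and carry the type 1 repeats that bind CD36 and, in thrombospondin 1, activate latent TGF-beta. Thbs3, Thbs4 and Comp form pentamers without type 1 repeats and are best known from cartilage, tendon, ligament and muscle. In the skeleton Comp helps to assemble collagen fibrils, and its mutations cause pseudoachondroplasia.

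The libraries held 27937709 to 32164725 counts each. Correlations of log2 levels within groups lay between 0.965 and 0.992 in 3 groups and between 0.94 and 0.947 in the BAC depleted group. The BAC depleted library 1 stood apart from the other 11 libraries in the sex of its cells. It had 43406 counts of Xist and 0 of Ddx3y, against at most 16 counts of Xist and at least 2484 of Ddx3y elsewhere. Tests of members in the comparisons that use this library are given with and without it. Mitochondrial genes held 1.82% to 2.62% of the counts of the BAC depleted libraries and 1.08% to 1.36% of the others. The stromal gene Prrx1 was present in every library at 345 to 692 CPM (counts scaled to a common library size by the trimmed mean of M values), while the stromal matrix gene Lum reached only 0.673 CPM in marrow. Summed over 12 macrophage markers, the level was 5086 to 5771 CPM in BM nonsorted, 6.32 to 8.73 in BM sorted, 12960 to 14600 in BAC nondepleted and 12.5 to 64.5 in BAC depleted libraries.

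The coding sequences show how alike the members are, which bears on how reads can be assigned among them. Pairwise identity over the aligned coding bases of one transcript per gene ran from 60.5% to 69.1%, highest between Thbs4 and Comp. The longest run of identical bases was 26, found once between Thbs1 and Thbs2 and once between Thbs4 and Comp, as printed here in the coding direction.
Thbs1 and Thbs2: ggagaccgctgtgacaactgccccta
Thbs4 and Comp: cagaccatgaacagtgaccctggcct
The other 8 pairs shared runs of 15 to 21 bases. No source used here gives the read length.

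The promoters of Thbs4 and Thbs2 are shown because Thbs4 was the member nearly restricted to the bone-associated libraries, while Thbs2 was expressed in all groups. Each sequence is the 250 bases before the start of the gene from RefSeq (GRCm38.p6), read on the gene's own strand, with motif matches in capitals. Thbs4 lies on the minus strand at chr13:92794819-92795068 and Thbs2 on the minus strand at chr17:14694263-14694512. Thbs3, at chr3:89214930-89215179 on the plus strand, was matched as well, and Thbs1 and Comp were not matched.
Thbs4: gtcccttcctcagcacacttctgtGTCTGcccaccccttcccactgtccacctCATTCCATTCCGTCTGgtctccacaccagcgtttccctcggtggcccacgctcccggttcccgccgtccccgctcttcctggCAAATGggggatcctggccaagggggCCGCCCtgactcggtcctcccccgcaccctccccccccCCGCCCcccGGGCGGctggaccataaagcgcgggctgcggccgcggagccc
Thbs2: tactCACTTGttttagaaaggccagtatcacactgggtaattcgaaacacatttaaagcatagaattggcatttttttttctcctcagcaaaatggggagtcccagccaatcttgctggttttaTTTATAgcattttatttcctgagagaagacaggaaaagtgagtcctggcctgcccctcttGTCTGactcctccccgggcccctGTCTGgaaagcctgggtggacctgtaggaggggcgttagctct
The motifs searched, on both strands, were AP-1 (TGANTCA), TEAD (GGAATG), SMAD (CAGAC), SP1 (GGGCGG), E-box (CANNTG), RUNX (TGTGGT) and the TATA box (TATAAA). The Thbs4 window held TEAD matches at positions -197 and -192 relative to the start, which overlap by 1 base, and SMAD matches at -226 and -186. It also held 3 SP1 matches and 1 E-box match, and 70.8% of its bases were G or C. The Thbs2 window, at 46.8% G and C, held 1 E-box match, 1 TATA match and SMAD matches at -66 and -43. The Thbs3 window held 1 E-box and 1 SP1 match. Over 32851 promoter windows of this length, 12.6% held a TEAD match, 42.2% a SMAD match, 32.7% an SP1 match, 66.2% an E-box match and 12.4% a TATA match. AP-1 letters, found in 6.75% of windows, and RUNX letters, found in 14%, were in none of the 3. These matches describe letters, not sites.

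Thbs1 was the most abundant gene of the data set, with 9628182 counts over all libraries, ahead of Fn1 with 8282906. It ranked between 1 and 4 by count in every library and took 1.04% to 8.11% of a library's counts. In BM nonsorted libraries 1, 2 and 3 its level was 19480, 17360 and 21290 CPM, and in the BM sorted libraries 19100, 20430 and 16690 CPM. The BAC nondepleted libraries had 10030, 28180 and 45270 CPM, and the BAC depleted libraries 13160, 28970 and 101200 CPM. The marrow groups overlapped and were tight, while both bone-associated groups spanned the whole marrow range and passed it on either side. Library 1 was the lowest and library 3 the highest in both bone-associated groups, but replicates carry no order.

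Thbs2, the matrix-organising trimer whose loss in mice disturbs collagen fibrils, was expressed in every library at a lower level than Thbs1. Its level was 2112, 1811 and 830.4 CPM in BM nonsorted and 1206, 2573 and 2153 CPM in BM sorted libraries. It was 262.9, 926 and 472.1 CPM in BAC nondepleted and 2977, 1799 and 304.5 CPM in BAC depleted libraries. All BM sorted libraries were above all BAC nondepleted libraries, every other pair of groups overlapped, and the BAC depleted libraries ranged from the highest value of all to the second lowest.

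Thbs3, a pentamer-forming member known from skeletal growth, was scarce throughout, between 9.54 and 31.96 CPM. The libraries of BM nonsorted cells had 24.05, 22.38 and 29.82 CPM and those of BM sorted cells 17.15, 27.77 and 29.38 CPM. BAC nondepleted libraries had 17.59, 11.81 and 11.17 CPM and BAC depleted libraries 31.96, 18.32 and 9.54 CPM. BM nonsorted libraries were all above BAC nondepleted libraries, and the other groups overlapped. In the mouse annotation 318 exon bases of Thbs3, 6.59% of its total, lie opposite exons of Mtx1, which had 435 to 553 counts a library. Strand use in the counting is not given, so Thbs3 reads and Mtx1 reads may not be separated there. For Thbs1 the opposite-strand overlap with Gm29233 was 208 bases, and Gm29233 had 3 to 43 counts.

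Thbs4, known from tendon, muscle and heart, was close to undetected in marrow. The BM nonsorted libraries had 2, 0 and 0 counts and the BM sorted libraries 0, 2 and 0 counts. The BAC nondepleted libraries had 28172, 22589 and 206 counts (945.5, 821 and 7.852 CPM), and the BAC depleted libraries had 57671, 59 and 2184 counts (1834, 2.086 and 90.99 CPM). Every bone-associated library was above every marrow library, yet within a bone-associated group the libraries differed 120.4-fold and 879-fold. That spread was the fifth largest (BAC nondepleted) and the tenth largest (BAC depleted) of 15698 genes, as a standard deviation of log2 CPM of 3.93 and 4.88. In bulk RNA, fewer cells of a type and less RNA per cell cannot be told apart.

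Comp, the cartilage oligomeric matrix protein, was low in marrow and abundant in bone-associated cells. BM nonsorted libraries had 8.151, 8.615 and 7.521 CPM, and BM sorted libraries 25.55, 33.58 and 9.986 CPM. BAC nondepleted libraries had 1110, 2837 and 1950 CPM, and BAC depleted libraries 8465, 4412 and 7780 CPM. No 2 of the 4 groups overlapped, and their order was BM nonsorted, BM sorted, BAC nondepleted and BAC depleted, from lowest to highest.

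**Figure D1:**
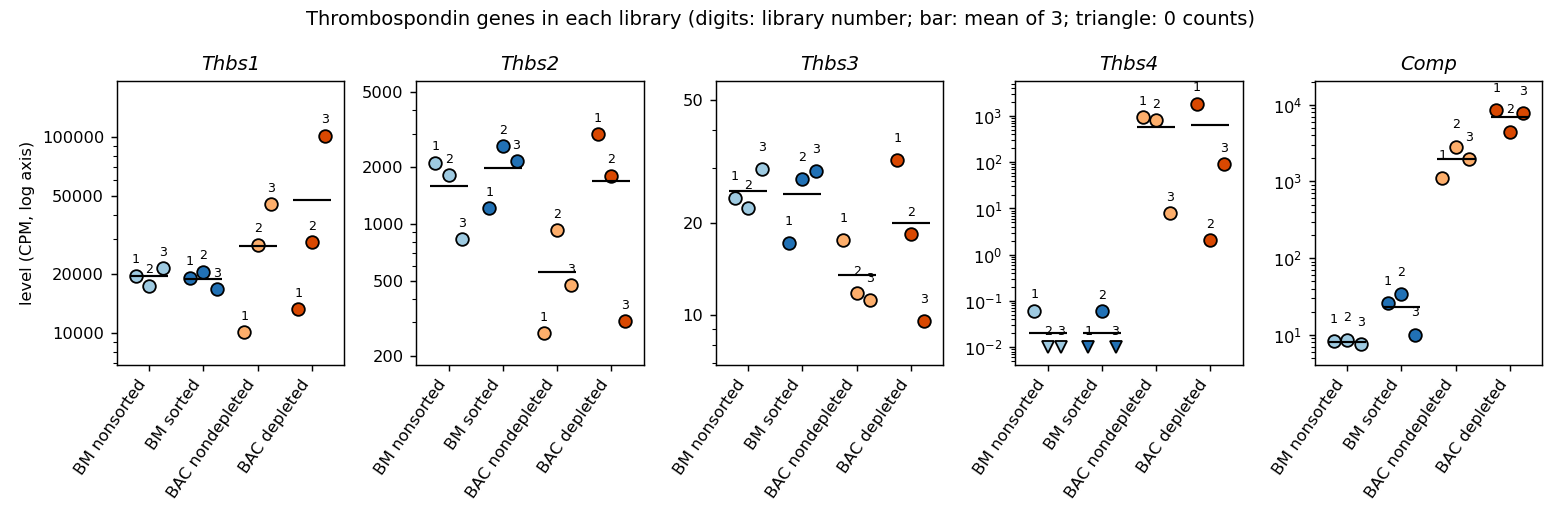
Level of each thrombospondin gene in the 12 libraries, in CPM on a log axis that differs between panels; points are libraries with their number, bars are means of 3, and triangles at the bottom mark 0 counts. Comp separates all 4 groups, Thbs4 separates bone-associated from marrow libraries, and Thbs1 reaches 101200 CPM in 1 BAC depleted library.

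Ordered by group means, the members differed in pattern. For Thbs1 the means were 47790 ± 46960 CPM in BAC depleted, 27820 ± 17620 in BAC nondepleted, 19380 ± 1970 in BM nonsorted and 18740 ± 1897 in BM sorted libraries (SD, n = 3), and no neighbours in this order differed by the test. Thbs2 averaged 1977 ± 700.1 CPM in BM sorted, 1694 ± 1339 in BAC depleted, 1584 ± 670.2 in BM nonsorted and 553.7 ± 339 in BAC nondepleted libraries (SD, n = 3). Its neighbouring groups overlapped. Thbs3 averaged 25.42 ± 3.904, 24.77 ± 6.64, 19.94 ± 11.3 and 13.52 ± 3.534 CPM in BM nonsorted, BM sorted, BAC depleted and BAC nondepleted libraries (SD, n = 3), again with overlap between neighbours. Comp averaged 6886 ± 2169, 1966 ± 863.5, 23.04 ± 11.99 and 8.095 ± 0.549 CPM in BAC depleted, BAC nondepleted, BM sorted and BM nonsorted libraries (SD, n = 3).

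Per kilobase of exon, which allows genes to be compared, Thbs1 made up most of the family's transcripts in 11 of 12 libraries. Its mean share was 93.1% in BM nonsorted, 91.3% in BM sorted, 79.6% in BAC nondepleted and 65.1% in BAC depleted libraries. Thbs2 held most of the remainder in marrow, with 6.71% and 8.33%, and Comp held most of it in bone-associated cells, with 13.3% and 27.9%. In the BAC depleted library 1, Comp held 47.5% and Thbs1 36.1%, the only library in which Comp exceeded Thbs1 per kilobase (1.32-fold). In the other BAC depleted libraries Comp held 22.8% and 13.5%. Thbs4 reached 12.2% in the BAC nondepleted library 1 and 9.28% in the BAC depleted library 1 and was under 0.15% in 2 BAC depleted libraries. Thbs3 was at most 0.199% in any library.

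The ratio of Thbs1 to Thbs2, the 2 trimer-forming members, varied most in BAC depleted cells. Per kilobase it was 5.1, 18.6 and 383 in BAC depleted libraries 1, 2 and 3, and 44, 35.1 and 111 in the BAC nondepleted libraries. In marrow it lay between 8.94 and 29.6. Differences in shares were tested by an exact two-sided permutation test for 20 pairs of member and comparison. With 3 libraries against 3 the smallest p this exact test can give is 0.1, which 8 of the 20 reached (Benjamini-Hochberg adjusted p = 0.25), so none could pass 0.05. All members together held 1.29% to 8.77% of a library's counts.

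**Figure D2:**
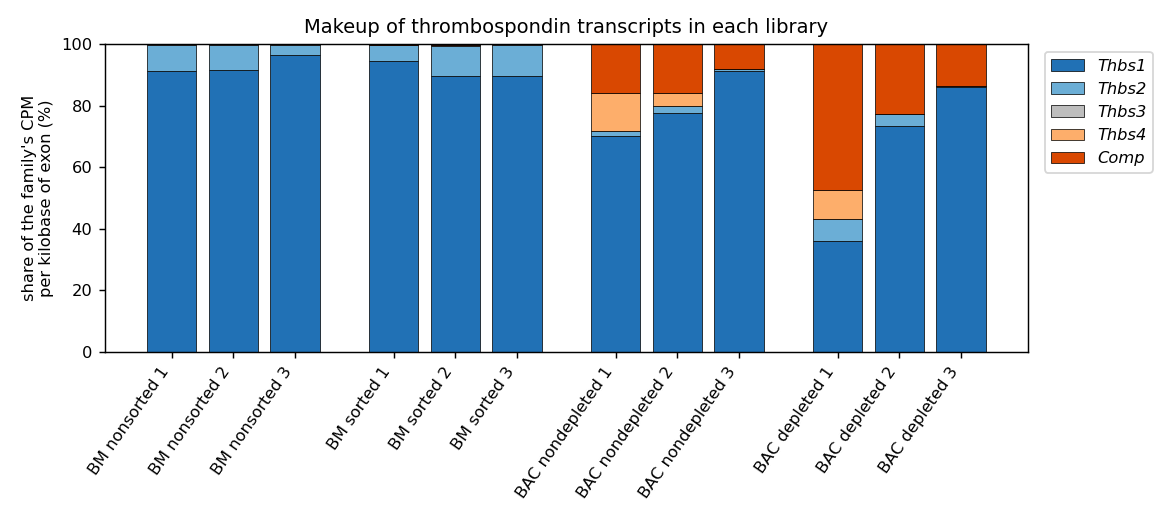
Share of the thrombospondin family's level per kilobase of exon held by each of the 5 genes, in percent, with 1 stacked bar per library. Thbs1 fills most of the bar in every library but BAC depleted 1, where Comp holds 47.5%, and Thbs4 and Comp are visible only in bone-associated libraries.

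Between purified cells from the 2 sites, Comp and Thbs4 were lower in BM sorted than in BAC depleted cells, and no other member passed the test. Differences are log2 fold changes with standard errors (SE) from edgeR's quasi-likelihood test over all 12 libraries, and a gene is called at a Benjamini-Hochberg adjusted p under 0.05 over all genes tested. Comp had a log2 fold change of -8.22 ± 0.61 (adjusted p = 2.34e-05), a 298.8-fold difference. Thbs4 was called as well (adjusted p = 0.00503), but it had passed the low-count filter through the bone-associated libraries alone. Its call and its separate libraries therefore add no support beyond its counts. With only 2 counts in the BM sorted group, the size of the Thbs4 difference is given as a ratio of counts per library size. It was 34280-fold with a 95% counting interval of 9490 to 283100. That interval covers counting error only. BAC depleted library 1 held 57671 of that group's 59914 Thbs4 counts, so the ratio and its interval rest mainly on that library. Here 24.6% of all genes tested were called lower and 47.4% in either direction, and 52.8% had libraries that did not overlap, as Comp and Thbs4 did. Without BAC depleted library 1 both calls held. The log2 fold changes were then -8.05 for Comp (adjusted p = 6.26e-05) and a fitted -10.86 for Thbs4 (adjusted p = 0.00984). With that library the fitted Thbs4 change was -14.65.

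Thbs1, Thbs2 and Thbs3 did not pass in this comparison. The Thbs1 estimate was -1.35 ± 0.69 (adjusted p = 0.134, 95% interval -2.89 to 0.19), and it rested on single BAC depleted libraries. Without library 1 it was -1.80 with an adjusted p of 0.0355 in edgeR's test, and without library 3 it was -0.18 (adjusted p = 0.817). Thbs2 was estimated at 0.22 ± 0.72 (adjusted p = 0.824) and Thbs3 at 0.31 ± 0.38 (adjusted p = 0.53). Their 95% intervals were -1.38 to 1.83 and -0.54 to 1.16. Without BAC depleted library 1 the estimates were 0.91 (adjusted p = 0.364) and 0.83 (adjusted p = 0.0722).

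In the unpurified preparations Comp and Thbs4 were again lower in marrow. Comp had a log2 fold change of -7.92 ± 0.60 between BM nonsorted and BAC nondepleted cells (adjusted p = 0.000113), a 242.7-fold difference. Thbs4 was called (adjusted p = 0.0095), with a ratio of 29940 and a counting interval of 8287 to 247200. Having passed the filter through the bone-associated libraries alone, its call again adds no support beyond its counts. BAC nondepleted library 3 held only 206 of that group's 50967 Thbs4 counts. Of all genes, 16.8% were called lower and 31.7% in either direction. The libraries did not overlap for Comp, Thbs4 and Thbs3, against 56.0% of all genes. Thbs3 was estimated at 0.91 ± 0.39 in marrow relative to bone (adjusted p = 0.0966), and in a fit to these 2 groups alone at 0.94 (adjusted p = 0.0149). Thbs1 at -0.52 ± 0.68 (adjusted p = 0.588) and Thbs2 at 1.52 ± 0.74 (adjusted p = 0.14) did not pass.

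Markers of other tissues differed between the sites as well, in both directions. Between purified cells 63.6% of cartilage and 57.1% of tendon and ligament markers were called, against 47.4% of all genes. For smooth muscle and pericyte markers it was 90%. Between unpurified cells these shares were 36.4%, 14.3% and 80%, against 31.7% of all genes. Of 11 cartilage markers, 6 were called lower and 1, Matn3, higher in BM sorted than in BAC depleted cells, while between unpurified cells Acan, Hapln1 and Cnmd were lower and Matn3 higher in marrow. Their summed level was 1711 to 4901 CPM in BM sorted, 3511 to 4662 in BM nonsorted, 1264 to 4271 in BAC nondepleted and 4878 to 36120 in BAC depleted libraries. In marrow that sum was mostly Col2a1, at 1000 to 3940 CPM. Cnmd, which encodes chondromodulin, had 0 counts in 5 marrow libraries and 32.1 to 7900 CPM in bone-associated libraries. Of 7 tendon and ligament markers, Mkx, Egr1 and Fmod were called lower and Chodl higher between purified cells, and Chodl, higher in marrow, was the only one called between unpurified cells. Their sum was 890 to 1392 CPM in marrow and 2007 to 10860 CPM in bone-associated libraries, mostly Fmod and Egr1. Egr1 is also among the immediate-early genes given below. Kera was at 0 in all marrow libraries, and the tendon factor Scx was at 0.389 to 7.2 CPM in all 12. Smooth muscle and pericyte markers went the other way, with 8 of 10 called higher in marrow in each comparison and 1, Cspg4, lower between purified cells. Their sum was 4906 to 7343 CPM in marrow and 433.3 to 1245 CPM in bone-associated libraries. The part of these cells in the Comp and Thbs4 differences was not tested.

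Depletion of the bone-associated cells was accompanied by a rise of Comp, and no other member passed the test. Comp increased by 1.81 ± 0.46 on the log2 scale (adjusted p = 0.0116), a 3.503-fold rise. Of all genes, 17.4% were called higher on depletion and 37.3% in either direction, and 46.3% had libraries that did not overlap, among the members Comp alone. Without BAC depleted library 1 the Comp change was 1.64 (adjusted p = 0.032), and it passed in all 15 alternatives computed, with adjusted p-values of 0.000227 to 0.0424. Of 11 cartilage markers 4 (Sox9, Acan, Col9a1 and Matn3) were called higher and none lower, 36.4% called in either direction against the 37.3% of all genes. Of 8 osteoblast markers tested, Sp7, Alpl, Bglap2, Ibsp and Dmp1 were called higher and none lower, 62.5% called. The summed level of the list was 370.2 to 4536 CPM in BAC depleted and 4184 to 6997 CPM in BAC nondepleted libraries. Nearly all of the BAC nondepleted sum was Spp1, at 4110 to 6880 CPM, so the sum mainly follows that gene. Spp1 was at 207 to 3670 CPM in BAC depleted libraries. Of 6 adipocyte markers tested, Adipoq, Plin1 and Pparg were higher and Cd36 lower, 66.7% called. Of 10 smooth muscle and pericyte markers Myh11, Actg2 and Abcc9 were higher, 30% called. Some of these genes were near the floor. In BAC depleted libraries Matn3 reached at most 1.2 CPM, Bglap2 0.509 and Abcc9 0.212. Adipoq, at 48.3, 3.78 and 0.333 CPM in BAC depleted libraries 1, 2 and 3, was mostly in library 1. Plin1, at 20, 5.66 and 0.0833 CPM, was as well. None of the 7 tendon markers was called. The part of these markers' cells in the Comp change was not tested. Macrophage markers were all called lower, 12 of 12.

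The other members had wide intervals on depletion. Thbs2 was estimated at 1.61 ± 0.74 (adjusted p = 0.111, 95% interval -0.03 to 3.26). It passed in edgeR without BAC depleted library 3 (2.10, adjusted p = 0.0174) and with DESeq2 (1.62, adjusted p = 0.0415), and it was 0.93 without library 1 (adjusted p = 0.366). Thbs3 was estimated at 0.56 ± 0.38 (adjusted p = 0.274), at 0.89 without library 3 (adjusted p = 0.0486) and at 0.046 without library 1 (adjusted p = 0.929). Thbs1 was estimated at 0.78 ± 0.69 (adjusted p = 0.392), at -0.41 without library 3 (adjusted p = 0.58) and at 1.23 without library 1 (adjusted p = 0.145). Thbs4 was estimated at 0.12 ± 1.68 (adjusted p = 0.963), and without library 1 at -3.67 (adjusted p = 0.143).

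On sorting of the marrow cells no member passed the test. Comp came nearest, at 1.51 ± 0.46 in BM sorted relative to BM nonsorted cells (adjusted p = 0.104, unadjusted p = 0.00807), with libraries that did not overlap, as in 28.7% of all genes. It passed with DESeq2 (1.53, adjusted p = 0.00986) and in edgeR without BM sorted library 3 (1.87, adjusted p = 0.0245), and over 15 alternatives its adjusted p ran from 0.00986 to 0.321. In this comparison 6.23% of all genes were called. Thbs1 was estimated at -0.048 ± 0.68 (adjusted p = 0.991, 95% interval -1.56 to 1.46), Thbs2 at 0.32 ± 0.72 (adjusted p = 0.918) and Thbs3 at -0.037 ± 0.38 (adjusted p = 0.985). Thbs1 was at 16690 to 21290 CPM in these 6 libraries. The macrophage sum was at least 5086 CPM in BM nonsorted and at most 8.73 CPM in BM sorted libraries. Of 10 megakaryocyte and platelet markers 5 were tested, and Pf4 and Treml1 fell on sorting while Itga2b, Gp1ba and Ppbp did not pass. The sum of the list was 50.51 to 55.92 CPM in BM nonsorted libraries, nearly all of it Pf4 (45.6 to 51.9 CPM), and 4.013 to 5.438 CPM in BM sorted libraries, mostly Itga2b (3.03 to 4.67 CPM). The platelet receptor gene Gp6 had 0 counts in all 12 libraries. The part of macrophages, megakaryocytes and platelets in the Thbs1 level was not tested.

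The purification effects of the 2 sites were compared directly by an interaction term, which called 8.06% of all genes and none of the members. The difference, marrow minus bone, was -0.30 ± 0.64 for Comp (adjusted p = 0.813), -0.83 ± 0.96 for Thbs1 (adjusted p = 0.635), -1.29 ± 1.02 for Thbs2 (adjusted p = 0.467) and -0.60 ± 0.54 for Thbs3 (adjusted p = 0.53). Without BAC depleted library 1 it was -0.13 for Comp (adjusted p = 0.933), -1.28 for Thbs1 (adjusted p = 0.351), -0.61 for Thbs2 (adjusted p = 0.747) and -0.084 for Thbs3 (adjusted p = 0.931). The call of Comp in bone and its absence in marrow thus does not show that the effects differ.

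**Figure D3:**
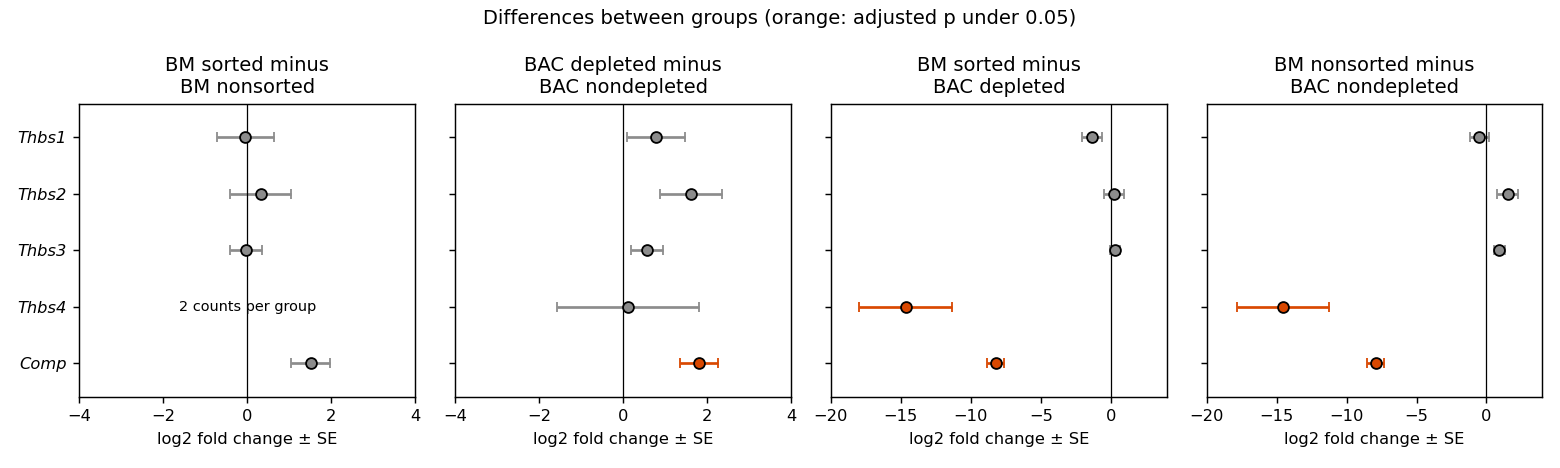
Log2 fold change of each member in the 4 comparisons, with SE as bars, orange where the adjusted p was under 0.05; the x axes of the left and right pairs of panels differ. Comp lies to the left of -7 in both comparisons of sites and at 1.81 on depletion. The position of Thbs4 depends on the prior count because marrow held 2 counts a group.

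Across the 12 libraries the members did not vary as a block. Pearson correlations of log2 CPM, given as a description of libraries that share group and preparation, were 0.872 between Thbs4 and Comp, 0.723 between Thbs2 and Thbs3 and -0.727 between Thbs1 and Thbs3. After each group's mean was removed, Thbs4 and Comp had 0.292, while Thbs1 and Thbs3 had -0.845. Thbs1 and Thbs2 correlated at -0.421.

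The genes most like each member over the 12 libraries were looked up among 10630 genes of at least 5 CPM on average, by Pearson correlation of log2 CPM. For Comp they included Itgbl1, an integrin beta-like protein (0.982), and Dcn, the proteoglycan decorin (0.982). After each group's mean was removed these 2 correlations were 0.667 and 0.526. Itgbl1 had 0.4288 to 2.048 CPM in marrow, 52.39 to 175.8 in BAC nondepleted and 164.8 to 385.6 in BAC depleted libraries. For Thbs4 they were Pih1d1 (0.981), the transcription factor gene Mecom (0.974) and Macrod1 (0.966). Mecom shared with Thbs4 its unevenness within the bone-associated groups, at 72.93, 51.43 and 20.12 CPM in BAC nondepleted and 103.3, 14.18 and 25.41 CPM in BAC depleted libraries. Thbs1 was most like the zinc transporter gene Slc30a9 (0.919), Papss1, which makes the sulfate donor for proteoglycans (0.915), and Stt3b, a subunit of N-glycosylation (0.911). For Thbs2 the genes were the RNA exosome gene Exosc1 (0.937), Ctr9 of the Paf1 complex (0.935) and Mlst8 of the mTOR complexes (0.913), and for Thbs3 Dgkq (0.924), Tstd2 (0.909) and Emx2 (0.904). The Thbs1 and Thbs2 neighbours varied little in size. Slc30a9 ran only from 74.91 to 116.4 CPM. The Thbs4 neighbour Pih1d1 varied little as well, from 18.53 to 30.34 CPM.

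The genes around the family were followed in 8 lists with 132 distinct genes tested, given as counts beside the share of all genes called. Between purified cells 27 were called higher and 48 lower in BM sorted cells, 56.8% against 47.4% of all genes. Between unpurified cells 23 were higher and 28 lower, 38.6% against 31.7%. On depletion 23 were higher and 16 lower, 29.5% against 37.3%, and on sorting 0 were higher and 10 lower, 7.58% against 6.23%. The lists overlap in a few genes and were not tested as sets. Genes outside the naming rule that are named because a count was small were chosen after their values were seen.

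Among 20 receptors of thrombospondins, 5 were higher and 8 lower in BM sorted than in BAC depleted cells, 65% called against 47.4% of all genes. The median log2 fold change was -0.47 against -0.02 over all genes. The integrin subunit Itgb3, which pairs with Itgav to bind the RGD sequence of thrombospondin, was higher in BM sorted cells by 2.99 ± 0.31 (adjusted p = 7.89e-05), at 73.17 ± 10.6 against 9.205 ± 2.65 CPM (SD, n = 3). Itgav was higher by 0.74 ± 0.21 (adjusted p = 0.014), and it encodes CD51, on which the marrow cells had been sorted. Cd47, the receptor of the thrombospondin C-terminal domain, had a log2 fold change of -0.79 ± 0.16 (adjusted p = 0.00243). Lrp1, which takes up thrombospondins with bound proteases, had -0.97 ± 0.24 (adjusted p = 0.00833), at 1630 ± 279 against 3194 ± 344 CPM (SD, n = 3). In the unpurified cells Itgb3 was higher in marrow by 3.11 ± 0.31 (adjusted p = 0.000297) and Itgav by 1.27 ± 0.21 (adjusted p = 0.00218), while Cd47 was at -0.85 ± 0.16 (adjusted p = 0.00387). Lrp1 did not pass there, at 0.19 ± 0.24 (adjusted p = 0.567).

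The receptor genes Cd36, Itga4, Itga6 and Sirpa fell in both purifications. On marrow sorting 4 of 20 receptors fell and none rose, 20% called against 6.23% of all genes. Cd36, the scavenger receptor that binds type 1 repeats, fell by 7.17 ± 1.67 in log2 units (adjusted p = 0.0277), from 3595, 2735 and 2170 counts to 43, 9 and 4. Itga6 fell by 6.82 ± 0.37 (adjusted p = 6.9e-07). Itga4 fell by 6.47 (adjusted p = 3.3e-07) and Sirpa, the macrophage partner of CD47, fell by 3.98 (adjusted p = 5.26e-07). On depletion 6 receptors fell and 1 rose, 35% called against 37.3% of all genes. Cd36 fell by 4.22 ± 1.39 (adjusted p = 0.037), with 558 counts left in BAC depleted library 1 and 8 and 0 in the others. The one that rose, Itga2, changed by 2.34 (adjusted p = 0.00711). Macrophage markers fell with these genes in both purifications, and their part was not tested.

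TGF-beta, which thrombospondin 1 can release from its latent complex, was followed through 9 ligand and latency genes and 15 response genes. Tgfb1 fell by 1.31 ± 0.23 on marrow sorting (adjusted p = 0.00409) and fell by 2.47 ± 0.23 on depletion (adjusted p = 2.8e-05). Nrros, which tethers latent TGF-beta on macrophages, fell by 6.75 ± 0.21 on sorting (adjusted p = 1.97e-08) and fell by 9.08 ± 0.23 on depletion (adjusted p = 5.73e-09). Between purified cells Tgfb1 did not pass (0.37 ± 0.22, adjusted p = 0.196), with Ltbp2, Nrros and Tgfb3 higher and Ltbp3 lower among the 9 genes of the list. That was 44.4% called against 47.4% of all genes. Nrros held only 56 counts in BM sorted and 25 in BAC depleted libraries. Of the response genes 6 were higher and 2, Id1 and Ski, lower in BM sorted than in BAC depleted cells, 53.3% called against 47.4% of all genes. Their median was -0.09 against -0.02 over all genes. Tgfbi was the largest of the higher ones, at 4.29 ± 0.82 (adjusted p = 0.00211), and it fell by 6.10 ± 0.89 on depletion (adjusted p = 0.000564). The summed level of the response genes was 28980, 28830 and 75620 CPM in BAC depleted libraries 1, 2 and 3 and 30990, 64360 and 57210 CPM in the BAC nondepleted libraries. It was 50430, 41870 and 38970 CPM in BM nonsorted and 44040, 51240 and 42720 CPM in BM sorted libraries. In marrow the sum mainly follows 2 matrix genes, Col1a1 and Fn1. In BM nonsorted and BM sorted libraries Col1a1 averaged 16680 and 20110 CPM, and Fn1 averaged 17530 and 16660 CPM. Col1a1 was at 3480 to 6460 CPM in BAC depleted and 10000 to 22000 CPM in BAC nondepleted libraries. The library with the highest sum was also the one with the highest Thbs1 in the BAC depleted and BM sorted groups and was another one in the BAC nondepleted and BM nonsorted groups.

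Matrix proteins that bind thrombospondins moved in both directions. Of 24 listed, 21 were tested, and 5 were higher and 7 lower in BM sorted than in BAC depleted cells. That was 57.1% called against 47.4% of all genes, with a median of -1.04 against -0.02 over all genes. Dcn had a log2 fold change of -8.71 ± 1.05 (adjusted p = 0.000183) and the cartilage proteoglycan gene Acan -8.34 ± 1.46 (adjusted p = 0.00126). Col9a1, a collagen IX chain that Comp binds, was called with 3 counts in the BM sorted group, a ratio of 1234 with a counting interval of 421.9 to 5987. Dcn was also lower in BM nonsorted than in BAC nondepleted cells, at -10.20 ± 1.13 (adjusted p = 0.000414). On depletion 6 rose and 1 fell, 33.3% called against 37.3% of all genes. Col9a1 (7.03 ± 0.83, adjusted p = 0.000149) and Col9a3 (5.88 ± 0.86, adjusted p = 0.000559) rose most. The fallen gene, Col1a1, changed by -1.69 (adjusted p = 0.00281). Col9a1 and Acan are also among the cartilage markers given above.

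Of the proteases that cut or bind thrombospondins, 72.7% were called between purified cells, against 47.4% of all genes. Between unpurified cells 54.5% were called, against 31.7% of all genes. Of 11 tested, 5 were higher and 3, Adamts1, Htra1 and Mmp9, lower in BM sorted than in BAC depleted cells. Adamts7, a protease known to cut Comp, was higher by 2.47 ± 0.61 (adjusted p = 0.00783), at 17.49 ± 2.61 against 3.142 ± 2.79 CPM (SD, n = 3), and between unpurified cells by 2.77 ± 0.62 (adjusted p = 0.00909). The cells with the lower Comp level had the higher Adamts7 level in both comparisons. Both are RNA levels, cleavage acts on the protein, and a link between the 2 genes was not tested. Mmp13, a collagenase, was higher by 3.62 ± 0.66 (adjusted p = 0.0016). Mmp2, whose clearance involves Thbs2 and Lrp1, passed in none of the 4 comparisons, with estimates of 0.33, 0.59, 0.19 and 0.45. Mmp9 fell by 6.46 ± 0.87 on marrow sorting (adjusted p = 0.000684), from 114, 129 and 247 counts to 1, 2 and 2.

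Of 35 other proteins with type 1 repeats, 29 were tested, and 4 were higher and 10 lower in BM sorted than in BAC depleted cells. This share of 48.3% was close to the 47.4% of all genes. Thsd4, which binds fibrillin, was higher in marrow in both comparisons, by 4.10 ± 0.35 between purified (adjusted p = 3.46e-05) and 7.18 ± 0.43 between unpurified cells (adjusted p = 3.79e-05). Unc5b, a netrin receptor, was higher by 3.74 ± 0.80 in BM nonsorted cells (adjusted p = 0.00737). On depletion 11 rose and 1 fell, 41.4% called against 37.3% of all genes. The fallen gene, Cfp, the complement protein properdin, fell by 5.54 ± 0.38 (adjusted p = 2.98e-06). Adgrb1, an adhesion receptor, rose by 5.94 ± 1.04 (adjusted p = 0.00158), at 4.598 ± 4.78 CPM after depletion (SD, n = 3).

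Thbs1 is also known as a serum-responsive early gene, and 19 immediate-early genes and 13 YAP and TEAD target genes were followed for that reason. In BM sorted cells 15 immediate-early genes were lower than in BAC depleted cells and none higher, 78.9% called against 47.4% of all genes. Their median was -3.10 against -0.02 over all genes. Between unpurified cells 8 were lower, 42.1% called against 31.7% of all genes. Among them were Fosb (-6.96 ± 1.02, adjusted p = 0.00145) and Fos (-4.05 ± 0.83, adjusted p = 0.0063). Their sum was 1430, 12430 and 15070 CPM in BAC depleted libraries 1, 2 and 3, where Thbs1 was lowest in library 1 as well. In BAC nondepleted libraries it was 10600, 8894 and 7120 CPM, the reverse of the order of Thbs1. Of the YAP and TEAD targets Axl was higher and Amotl2, Ccn1 and Wwtr1 were lower in BM sorted than in BAC depleted cells. That was 30.8% called against 47.4% of all genes, with a median of -0.35.

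**Figure D4:**
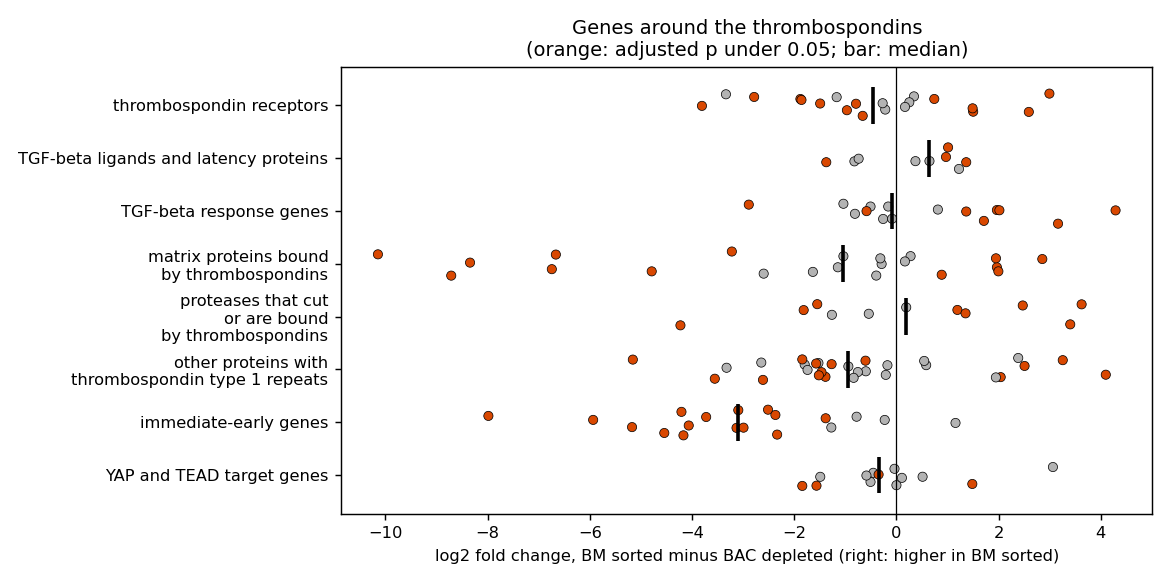
Log2 fold change between BM sorted and BAC depleted cells for every tested gene of the 8 lists around the thrombospondins, 1 point per gene, orange where the adjusted p was under 0.05, with the list's median as a bar. Immediate-early genes have their median at -3.10, and matrix proteins spread from Col9a1 at -10.15 to Vcan at 2.85.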

How the data were processed

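The authors deposited raw read counts, 1 row per gene and 1 column per library. Build GRCm39, STAR 2.7.9a, Subread 2.0.1 with featureCounts, and MultiQC 1.7 are named in the submitters' processing notes. Its annotation release and strand setting were not given in the sources used here. Per the labels' protocols, 50 ng of column-purified RNA entered a low-input kit. Depth was 27937709 to 32164725 counts a library. Amplified reads are not independent molecules, so counting intervals cover counting error only.

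The tests used edgeR 4.0.16 under R 4.3.3. Libraries were grouped by their titles and scaled by TMM, filterByExpr left 15698 genes, and 1 model of 4 group means was fitted to all 12 libraries. The 4 comparisons and the difference of the purification effects were tested by the robust quasi-likelihood F test, with Benjamini-Hochberg adjustment over all genes and calls at an adjusted p under 0.05. The SE was taken as |log2 fold change| over the root of the F statistic, which is unreliable near 0 counts. Ratios replace fitted changes where a group held 1 to 3 counts. The code was tested on simulated data. A prior count of 2 entered the log2 CPM behind correlations. Exon lengths came from GENCODE M21 and were used as lengths only, coding sequences from its transcripts, promoters from RefSeq (GRCm38.p6). Promoters matched for 3 of 5 members. Shares were compared by exact permutation in Python 3.11.15. Alternatives were other scalings, filters, a fit to the compared groups, Thbs1 left out of the totals, a replicate block, DESeq2 1.42.0 and leaving out each library.

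Named genes were the members, the 3 genes most correlated with each (1 of them is not reported here), up to 3 listed genes called each way per comparison, and 9 defining genes (Cd36, Cd47, Itgav, Itgb3, Lrp1, Tgfb1, Adamts7, Mmp2, Mmp9). The members and all lists were chosen with earlier results of these data known.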

Additional observations from a re-analysis of the deposited data

Results flagged for a closer look

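Among the genes around the family that are named in the report, 7 differed in their purification effect between the sites. The test was edgeR's quasi-likelihood test of the interaction with Benjamini-Hochberg adjustment, each from 3 libraries a group. The naming rule takes up to 3 genes called each way in this interaction, so the number named follows from the rule. Of the 132 listed genes tested, 5 were called with a positive and 11 with a negative difference, 12.1% against 8.06% of all genes. Values are log2 differences, the change on marrow sorting minus the change on bone depletion. Positive differences were found for Tgfbi (5.55, adjusted p = 0.0165), Nrros (2.33, adjusted p = 0.00237), Col1a1 (1.96, adjusted p = 0.0295) and Tgfb1 (1.16, adjusted p = 0.0493). Negative differences were found for Col9a1 (-8.46, adjusted p = 0.0218), Mmp9 (-7.96, adjusted p = 0.00405) and Col9a3 (-6.47, adjusted p = 0.0112).

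For Mmp9 the counts were 490 in BM nonsorted and 5 in BM sorted libraries. They were 31 in BAC nondepleted and 94 in BAC depleted libraries, with 69 of the latter in library 1. Nrros had 6254, 56, 13767 and 25 counts in the same order, so its difference depends on the few counts left after purification. Col9a1 had 9, 3, 25 and 3235 counts in the same order, so its fitted difference depends on the prior count. Tgfbi kept 1268, 2767 and 4561 counts in the BM sorted libraries and 331, 64 and 15 in the BAC depleted libraries.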

How the results depend on the processing

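For the members, 365 alternative values of 23 results were computed. Of these, 342 kept direction and side of the threshold, 16 changed sign, all of estimates that had not passed, 7 gained a call and 0 lost one. The cause of the changes was not tested.

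With upper quartile scaling Thbs1 and Thbs3 on marrow sorting became 0.0348 and 0.0425, and with no low-count filter Thbs3 became 0.0059. In a fit to the compared groups alone Thbs3 between unpurified cells became 0.94 and the genes called on depletion fell from 5863 to 3556. With DESeq2 Comp on sorting became 1.53, Thbs2 on depletion 1.62, and the genes called for the interaction rose from 1266 to 2450. Same-numbered libraries did not deviate together in every pair (correlations -0.223 to 0.237). In some pairs the correlation was above that of the best other number and in others below it. These weak correlations therefore cannot decide whether the numbers pair the libraries. The sex genes show only that BAC depleted library 1 did not come from the same mouse as BAC nondepleted library 1. With the replicate block the interaction called 808 genes, and no member's call changed.

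Leaving out 1 library gave, on sorting, -0.12 to 0.027 for Thbs1, -0.18 to 0.17 for Thbs3 and 1.15 to 1.87 for Comp. On depletion it gave -0.41 to 1.32 for Thbs1, 0.93 to 2.19 for Thbs2, 0.046 to 0.89 for Thbs3 and -3.67 to 0.69 for Thbs4. Between purified cells it gave -1.80 to -0.18 for Thbs1, -0.28 to 0.91 for Thbs2 and -0.029 to 0.83 for Thbs3, and between unpurified cells -0.92 to 0.018 for Thbs1. For the interaction it gave -1.37 to 0.38 for Thbs1 and -0.66 to 0.067 for Comp. Genes called ranged from 2949 to 4188 between unpurified cells, against 4980 with all libraries, and from 437 to 1612 for the interaction.

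Plain library totals moved the median of all genes to 0.15 between purified and 0.11 between unpurified cells, and upper quartile scaling to 0.13 on depletion. With plain totals 62% of calls between purified cells were higher in marrow, against 48.2%, and 60.7% against 47% between unpurified cells.

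With 3 libraries a group the intervals of Thbs1, Thbs2 and Thbs4 in bone-associated cells are wide. Depth limits only Thbs4 in marrow, where each group held 2 counts.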
